A study of Mus musculus with 21 samples.

Results

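Ribosomal protein genes were the 86 genes of the 55491 in each table whose symbol matched a fixed pattern: Rpl or Rps followed by digits and an optional a, x, l or l1, together with *Rplp0* to *Rplp2* and *Rpsa*. By name, 53 belong to the large subunit and 33 to the small subunit, and 10 are paralogs or copies with an l in the suffix (*Rpl3l*, *Rpl22l1*, *Rps27l* and others). GENCODE release M21 lists 82 of them as protein coding and 4 (*Rpl6l*, *Rpl32l*, *Rps4l* and *Rps12l1*) as pseudogenes. The low-count filter kept 83 members among 16173 genes in lymph nodes and 84 members among 19101 genes in skin. *Rpl10l* and *Rps12l1* had 0 counts in all 21 libraries and were tested in neither tissue, and *Rpl3l* was left out in lymph nodes alone.

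The study followed mice that overexpress interferon kappa in the epidermis (*Ifnk* TG), a model of cutaneous lupus, beside BALB/c wild-type (WT) mice, with poly(A) RNA sequenced from skin and from skin-draining inguinal lymph nodes. Skin was crushed and homogenized, while the nodes were passed through a cell strainer of 70 µm before lysis. Lymph nodes came from 4 groups of 3 samples: WT and *Ifnk* TG mice without treatment, and WT and *Ifnk* TG mice given UVB. The UVB dose was 250 mJ/cm2 at 310 nm on 3 days a week for 2 weeks, and nodes were taken after a further 2 weeks of observation; the labels give no age for these mice. Skin came from mice 12 months old and was lesional skin of *Ifnk* TG mice (n = 4), nonlesional skin of *Ifnk* TG mice (n = 2) or skin of WT mice (n = 3), none of it irradiated. The transgene is driven by the keratin 14 promoter, carried by a piggyBac vector and made on C57Bl/6 mice that were then backcrossed onto BALB/c, so its intended source is the keratinocyte. Sex, skin site and the identity of each mouse are not in the labels, so p-values measure the spread between these samples, and every library carries the batch label 1. The paper describes lesions mainly on the face, with lesional skin cut out where it occurred. Nonlesional skin came from the back and from areas matching the lesions. Body site may therefore differ between the skin groups and cannot be told apart from the lesion. Libraries held between 27599809 and 36428435 counts in nodes and between 40499078 and 56511276 in skin.

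Each ribosome is built from a small subunit, which reads the mRNA, and a large subunit, which joins amino acids, and nearly every ribosomal protein is present once per particle. Mammalian ribosomal protein mRNAs are abundant and short, and most start with a run of pyrimidines (the 5′ terminal oligopyrimidine, or TOP, element) through which mTOR signalling and LARP1 adjust their translation. In skin and lymphoid tissue, dividing cells such as hair matrix cells, basal keratinocytes and activated lymphocytes depend on making new ribosomes, and several of the proteins have further roles outside the ribosome.

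*Ifnk* itself had 14, 11, 5 and 8 counts in the 4 lesional skin samples, 6 and 0 counts in the 2 nonlesional samples and 0 counts in each of the 3 WT skin samples. All 12 lymph node libraries also held 0 counts of *Ifnk*, and 3 counts, about the upper 95% limit for a count of 0, would have been at most 0.109 CPM there. Nonlesional sample 3, labelled transgenic, thus showed no *Ifnk* count. It is not known if RNA from the transgene would be assigned to *Ifnk* in these tables. The tissue labels were checked against marker lists. The 12 epidermal keratinocyte markers summed to between 10784 and 28187 CPM in skin libraries and to between 12.8 and 21.2 CPM in node libraries, where *Krt15* was at 0. The 12 B cell markers, led by *Ighm*, summed to between 2939 and 5628 CPM in nodes and to between 28.7 and 214 CPM in skin. CPM here (counts per 1e6) are counts over the library size after TMM scaling, and intervals and count floors cover counting error only, since the libraries carry no molecular identifiers.

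RefSeq promoters (GRCm38.p6, from 250 bases before to 50 bases after the start site) were matched for 63 of the 86 members. The windows of 60 bases below, 45 before the start site and 15 of the first exon, are shown for members that the skin results turn on: *Rpl22l1*, *Rpl41*, *Rpl13a*, *Rpl11* and *Rps27* had among the largest differences between lesional and WT skin, *Rplp0* anchors the stalk of the large subunit, *Rps6* is the substrate of the S6 kinases, and *Rpl10* had the smallest difference between lesional and nonlesional skin among members of at least 1 CPM other than *Rpl3l*. The window of *Rpl22l1* at chr3:28805463-28805522 (plus strand) comes first, followed by that of *Rpl41* at chr10:128549154-128549213 (minus strand). *Rpl13a* at chr7:45128731-45128790 (minus strand) and *Rpl11* at chr4:136053379-136053438 (minus strand) follow. The others are *Rps27* at chr3:90213634-90213693 (minus strand), *Rplp0* at chr5:115559422-115559481 (plus strand), *Rps6* at chr4:86857353-86857412 (minus strand) and *Rpl10* at chrX:74270771-74270830 (plus strand). Capitals mark the longest run of C and T within 15 bases of the start site.
Rpl22l1: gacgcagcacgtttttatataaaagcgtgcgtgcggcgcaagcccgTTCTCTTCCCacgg
Rpl41: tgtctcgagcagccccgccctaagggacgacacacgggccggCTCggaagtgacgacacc
Rpl13a: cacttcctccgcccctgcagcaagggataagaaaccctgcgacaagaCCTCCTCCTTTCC
Rpl11: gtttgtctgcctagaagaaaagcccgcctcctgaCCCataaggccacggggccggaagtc
Rps27: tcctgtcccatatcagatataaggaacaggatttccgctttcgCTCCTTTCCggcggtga
Rplp0: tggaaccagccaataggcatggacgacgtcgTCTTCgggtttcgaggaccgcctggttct
Rps6: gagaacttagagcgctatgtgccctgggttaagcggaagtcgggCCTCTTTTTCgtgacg
Rpl10: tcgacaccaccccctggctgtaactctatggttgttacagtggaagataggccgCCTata
The run was 13 bases long in *Rpl13a*, 10 in *Rpl22l1* and in *Rps6*, and 9 in *Rps27*. It was 5 bases long in *Rplp0* and 3 in *Rpl41*, *Rpl11* and *Rpl10*, at the RefSeq start used here. GENCODE places the first base of *Rpl41* at chr10:128549305 and that of *Rpl11* at chr4:136053428, upstream of the RefSeq starts. A short run here thus does not show that a TOP element is absent.

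A run of at least 8 pyrimidines near the start site was present in 28 of the 63 matched members (44.4%) and in 3760 of 27025 genes with a promoter entry (13.9%). The ETS family core CCGGAAG, searched on both strands over the whole promoter, occurred in 25 members (39.7%) and in 9.93% of all genes. Its reverse complement CTTCCGG starts with pyrimidines, so it can overlap the run. The YY1 core AANATGGC occurred in 13 members (20.6%) and in 6.96% of all genes. TATAAA occurred in 8 members (12.7%) and in 15.7% of all genes, and the E box CACGTG in 6 members (9.52%) and in 8.09% of all genes. These matches describe letters in the window and were not tested as binding sites.

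Levels were compared between genes as CPM per kb of median protein-coding transcript length, averaged over the libraries of a tissue. In nodes, the highest level per length belonged to *Rps24*, a small-subunit protein mutated in Diamond-Blackfan anemia, at 3752 ± 617 CPM per kb (SD over 12 libraries). *Rps27*, a zinc-finger protein of the small subunit, followed at 3068 ± 572 CPM per kb, and *Rpl13a*, which also takes part in interferon-gamma-dependent translational silencing, at 2853 ± 557 CPM per kb, within the spread of its neighbours. In skin the order depended on the group. In WT skin *Rplp1* led at 1666 CPM per kb (group mean), before *Rpl13a* at 1413 and *Rps14*, a small-subunit protein lost in the 5q- syndrome, at 1355. In nonlesional skin *Rplp1* led at 1910.5 CPM per kb. In lesional skin *Rps14* led at 3822 CPM per kb, with *Rpl13a* at 3168 and *Rplp1* at 2574. Several paralogs lay far below. *Rpl22l1*, in contrast, was at 235 ± 45.2 CPM per kb in nodes and 264 ± 146 in skin, above *Rpl22* at 150 ± 24.6 and 171 ± 45.9. *Rpl39l*, best known from testis, was at 0.671 ± 0.350 CPM per kb in nodes and 18.6 ± 7.01 CPM per kb in skin. *Rps4l* was at 0.800 ± 0.336 CPM per kb in nodes and 9.98 ± 3.28 CPM per kb in skin. *Rpl3l*, the striated-muscle counterpart of *Rpl3*, had at most 5 counts in any node library. Its group means in skin were 133 CPM per kb in WT, 98.3 in nonlesional and 11.6 in lesional skin. *Rpl32l* was the lowest detected member in skin, at 0.627 ± 0.275 CPM per kb.

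Processed copies share sequence with many members, and 63 of the 86 have at least 1 pseudogene named after them, 318 in all. Reads that fit a gene and its copy equally well are divided by the estimate behind the counts, so the level of such a member is uncertain. *Rps2*, a small-subunit protein at the mRNA entry site, is the clearest case: in nodes 98.3% of the summed CPM of *Rps2* and its 12 pseudogenes was assigned to the pseudogenes, and in skin 98.2%. The pseudogene share was 87.9% for *Rps18*, 57.1% for *Rpl3* and 35.7% for *Rps7* in nodes.

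Together the members took 6.58%, 8.71% and 7.13% of all counts in samples 1, 2 and 3, the WT nodes without UVB, a mean of 7.47% ± 1.11 (SD, n = 3). In WT nodes after UVB, samples 7, 8 and 9, they took 5.98%, 5.39% and 6.19%, a mean of 5.85% ± 0.416 (SD, n = 3). The WT groups did not overlap, and the 3 irradiated libraries were the lower ones. In *Ifnk* TG nodes without UVB (samples 4, 5 and 6) the share was 7.43%, 6.65% and 6.80%, a mean of 6.96% ± 0.412 (SD, n = 3). After UVB (samples 10, 11 and 12) it was 5.34%, 5.81% and 7.95%, a mean of 6.37% ± 1.40 (SD, n = 3). Here the groups overlapped, because sample 12 lay above all 3 unirradiated *Ifnk* TG libraries while samples 10 and 11 lay below them. Members of a node group tended to be highest in the same library: sample 2 in 78 of 83 tested members, sample 9 in 77, sample 4 in 71 and sample 12 in 83. They were lowest in sample 1 in 80 members, in sample 8 in 74 and in sample 10 in 78. The members thus moved together between libraries, but the same counts were not made over all genes, so this may not be particular to them. Each comparison of nodes is given with the range found when 1 library was left out.

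In skin the share was 3.46%, 3.52% and 3.16% in the WT samples 8, 9 and 10, a mean of 3.38% ± 0.190 (SD, n = 3). It was 3.73% and 4.18% in the nonlesional samples 2 and 3, a mean of 3.95% ± 0.321 (SD, n = 2). Lesional samples 4, 5, 6 and 7 were at 6.82%, 6.01%, 5.39% and 5.70%, a mean of 5.98% ± 0.616 (SD, n = 4), all above every nonlesional and WT library. Sample 4 was the highest lesional library for 73 of 84 tested members, a count that was likewise not made over all genes. The 95% Wilson interval of a single library's share was at most 0.0197 percentage points wide, so counting error was small beside the differences between libraries. The plot of shares by library shows both tissues on one axis.

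**Figure D1:**
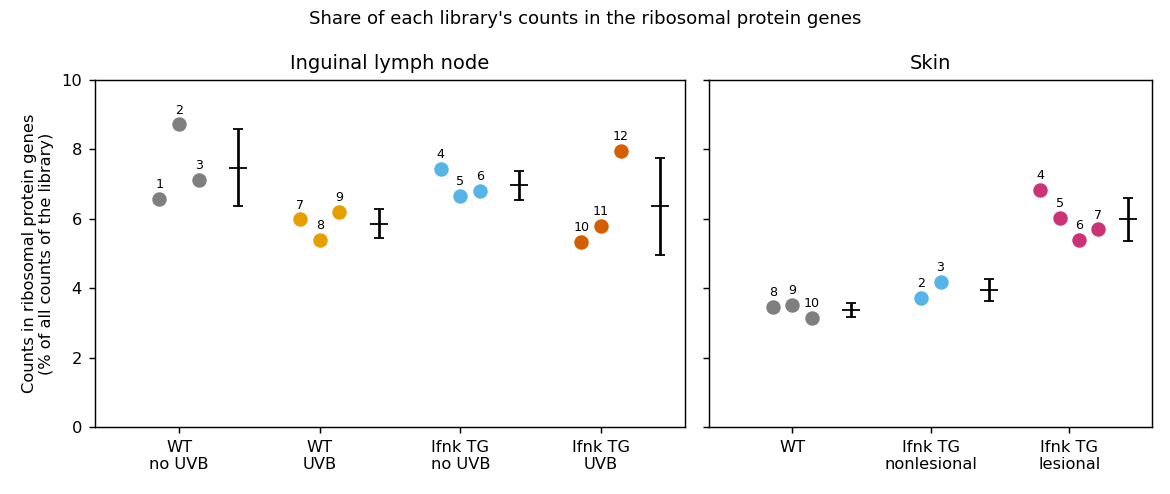
Share of each library's counts that fell in the 86 ribosomal protein genes, in percent, for 4 groups of lymph nodes (left) and 3 groups of skin (right). Points are libraries with their sample numbers, and the bar beside each group is the mean with the SD. The WT node groups do not overlap, sample 12 lies above all unirradiated *Ifnk* TG nodes, and the 4 lesional skin libraries lie between 5.39% and 6.82%, above the other skin libraries.

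The first comparison in nodes asks how UVB on the skin changes the draining node of WT mice. With edgeR's quasi-likelihood F-test and Benjamini-Hochberg adjustment over all 16173 genes, 0 of 83 members passed an adjusted p of 0.05, while 2.92% of all genes passed as higher and 2.06% as lower. At an unadjusted p under 0.05, 55 of 83 members were called, all lower, against 26.3% of all genes called in either direction. That count rested on single libraries: with the share of all genes in brackets, it was 1 (21.7%) without sample 2, 4 (16.1%) without sample 8, 14 (23.0%) without sample 7, 34 (18.5%) without sample 3, 52 (21.6%) without sample 9 and 66 (23.1%) without sample 1. DESeq2 called 9 members, all lower, among 2002 of 16173 genes, 884 of which were lower. The log2 fold change was negative for 82 of 83 members, with a median of -0.38 (the median of all genes was -0.0048), and the smallest adjusted p of a member was 0.0749. The 3 irradiated WT libraries lay below all 3 unirradiated ones for 67 of 83 members, and for 17.3% of all genes. In RNA pooled over the cells of a node, fewer cells of a type and less RNA per cell cannot be told apart.

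Among the stalk genes, whose proteins recruit the GTPases of translation to the large subunit, *Rplp0* had 1524, 1873 and 1706 CPM in WT nodes without UVB and 1300.3, 1273 and 1426 CPM after UVB. All irradiated libraries were the lower ones, as for *Rplp1* and *Rplp2*. Its log2 fold change was -0.35 ± 0.14 (SE; adjusted p = 0.127), while those of *Rplp1* and *Rplp2* were -0.41 and -0.46. *Rpl5* and *Rpl11* bind 5S rRNA and, outside the ribosome, the p53 regulator MDM2. *Rpl11* had 752, 1037 and 879 CPM in WT nodes without UVB and 669, 603 and 699 CPM after UVB, again without overlap. The log2 fold change of *Rpl11* was -0.44 ± 0.15 (SE; adjusted p = 0.0896), and that of *Rpl5* was -0.39. *Rpl22*, an RNA-binding protein needed for the development of alpha-beta T cells, was at -0.38 on the log2 scale, and its paralog *Rpl22l1* at -0.40. *Rpl13a* was at -0.45.

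In the small subunit, *Rps14* had the most negative estimate of a member of at least 1 CPM, from 930.0, 1530.5 and 1068 CPM in WT nodes without UVB and 842, 769 and 905 CPM after UVB. The groups did not overlap, and sample 2 was far above the other unirradiated libraries. Its log2 fold change was -0.49 ± 0.18 (SE; adjusted p = 0.123). *Rps21* (-0.48) and *Rps16* (-0.47) came next. *Rps6*, the S6 kinase substrate, was at -0.37, *Rps19*, the member most often mutated in Diamond-Blackfan anemia, at -0.44, *Rps27* at -0.42, and *Rpsa*, also known as the laminin receptor precursor, at -0.35. None of these passed the test. At the other end stood *Rps2* (0.049), *Rps27l* (-0.13), a p53-induced paralog of *Rps27*, and *Rpl7l1* (-0.15), which acts in the assembly of the large subunit. With pseudogene counts added, the log2 fold change of *Rps2* was -0.35, so its sign depends on how shared reads are assigned. Leaving out 1 library moved *Rps2* from -0.030 (without sample 1) to 0.15 (without sample 2) and *Rps27l* from -0.24 (without sample 1) to 0.073 (without sample 2). The rare copies *Rps4l* (9 to 35 counts per node library) and *Rpl39l* (3 to 26 counts) had estimates of -0.87 and -0.69 with standard errors of 0.46 and 0.60. Large-subunit and small-subunit members outside the paralogs had medians of -0.37 (46 genes) and -0.41 (30 genes).

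A fit of the 6 WT node libraries alone called 35 of 82 members, all lower, among 2431 of 15279 genes, 862 of which were lower. The call of individual members after UVB thus depended on the libraries in the fit, while the median stayed negative, from -0.50 to -0.27 on the log2 scale when any 1 library was left out (nearest 0 without sample 2).

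In *Ifnk* TG nodes, the same question gave 0 of 83 members at an adjusted p under 0.05 by edgeR, and 0.00% of all genes. At an unadjusted p under 0.05 the count was 0 of 83 members beside 9.32% of all genes, and DESeq2 called 0, with 137 of all 16173 genes. Without sample 12, 62 members were at an unadjusted p under 0.05, beside 19.9% of all genes. That fit passed 0 members, and 236 of 16616 genes, 66 of them lower, where 0 passed with all libraries. The median log2 fold change was -0.080 (all genes 0.019), with 80 of 83 estimates negative. It ran from -0.33 to 0.064 when 1 library at a time was left out, the lowest value being that without sample 12 and the highest that without sample 10.

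*Rplp0* had 1529, 1474 and 1547 CPM in *Ifnk* TG nodes without UVB and 1259.7, 1490.0 and 1897 CPM after UVB. Sample 12 was the highest of the 6 libraries and sample 10 the lowest. The log2 fold change was 0.030 ± 0.14 (SE; adjusted p = 0.963), the highest of the members of at least 1 CPM. *Rpl11* had 880.1, 788 and 784 CPM in *Ifnk* TG nodes without UVB and 625, 698 and 925 CPM after UVB, where sample 12 was again the highest. On the log2 scale the difference was -0.13 ± 0.15 (SE; adjusted p = 0.835). *Rpsa* (0.014) and *Rps24* (-0.0064) followed *Rplp0* at the upper end. *Rps29* (-0.21), a zinc-finger protein of the small subunit, *Rpl6l* (-0.20) and *Rpl3* (-0.19), which lies near the peptidyl transferase centre, were at the lower end. With 1 library left out, the estimate of *Rplp0* ran from -0.16 (without sample 12) to 0.16 (without sample 10), that of *Rpsa* from -0.21 (without sample 12) to 0.15 (without sample 10), that of *Rps24* from -0.17 (without sample 12) to 0.11 (without sample 10) and that of *Rps29* from -0.65 (without sample 12) to 0.052 (without sample 4).

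The difference between genotypes in the UVB change was tested by the interaction term of the fit. By edgeR 0 of 83 members passed, as did 0.00% of all genes. At an unadjusted p under 0.05 there were 0 members beside 5.45% of all genes, and DESeq2 called 0 members (8 of all genes) and had 1 at an unadjusted p under 0.05, beside 5.74% of all genes. The median interaction estimate was 0.30 on the log2 scale (all genes 0.0082), positive for 81 of 83 members. It ran from 0.078 without sample 12 to 0.47 without sample 10, where 35 members were at an unadjusted p under 0.05 beside 13.5% of all genes. Without sample 1 this count was 4, beside 6.01% of all genes. *Rpl9* had the highest estimate of a member of at least 1 CPM, 0.40 ± 0.26 (SE; adjusted p = 0.848), followed by *Rps24* (0.40) and *Rplp0* (0.38). For *Rpl11* it was 0.31. The lowest estimates were those of *Rps2* (-0.12), *Rpl7l1* (0.031) and *Rpl6l* (0.076), all of which crossed 0 with 1 library left out: *Rps2* ran from -0.38 (without sample 12) to 0.11 (without sample 4), *Rpl7l1* from -0.093 (without sample 12) to 0.12 (without sample 10) and *Rpl6l* from -0.18 (without sample 12) to 0.25 (without sample 4). A different UVB change of these genes in *Ifnk* TG and WT nodes was not detected with 3 samples a group, and the size of the median depended on samples 10 and 12. The plot of both UVB changes shows the members and the medians with each library left out.

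**Figure D2:**
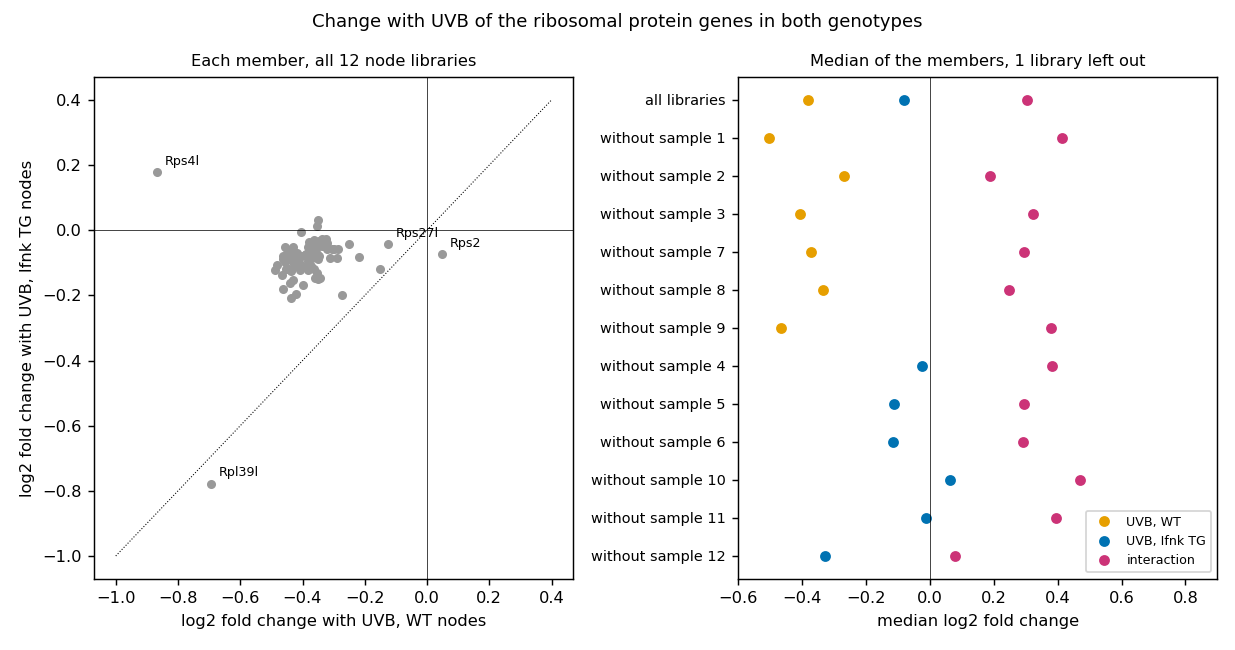
Left, log2 fold change with UVB of each tested ribosomal protein gene in WT nodes (horizontal axis) and *Ifnk* TG nodes (vertical axis), with a dotted line at equal values. Right, median log2 fold change of the members for UVB in WT nodes, UVB in *Ifnk* TG nodes and the interaction, with all node libraries and with 1 library left out; the interaction runs from 0.078 to 0.47.

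The genotypes were compared directly in the same fit. Without UVB, edgeR called 0 of 83 members between *Ifnk* TG and WT nodes, and 0.00% of all genes. At an unadjusted p under 0.05 the numbers were 0 members and 3.39% of all genes, and DESeq2 called 0, with 2 of all genes. The median was -0.12 (all genes -0.0038), with 79 of 83 negative, and ran from -0.22 to -0.011 with 1 library left out, nearest 0 without sample 2. *Rpl9* (-0.25), *Rps12* (-0.22) and *Rpl17* (-0.22) were lowest, and *Rpl6l* (0.12), *Rpl7l1* (0.011) and *Rpl21* (0.0038) highest. The latter changed sign with 1 library left out, *Rpl6l* from -0.040 (without sample 4) to 0.23 (without sample 2), *Rpl7l1* from -0.036 (without sample 3) to 0.078 (without sample 2) and *Rpl21* from -0.080 (without sample 1) to 0.064 (without sample 2). After UVB, edgeR again called 0 of 83 members, with 0.00% of all genes, and DESeq2 called 0, with 19 of all genes. At an unadjusted p under 0.05 there was 1 member, *Rps4l*, beside 6.99% of all genes, while the count was 31 without sample 10, beside 16.9% of all genes, and 2 without sample 12, beside 8.58%. *Rps4l*, a copy of *Rps4x* that is annotated as a transcribed pseudogene, had 0.270, 0.473 and 0.276 CPM in irradiated WT nodes and 0.727, 0.731 and 1.04 CPM in irradiated *Ifnk* TG nodes. The *Ifnk* TG values were all higher, with an unadjusted p of 0.0129 and an adjusted p of 0.673. The median of the members was 0.18 (all genes 0.0065), with 80 of 83 positive, and ran from -0.055 to 0.33 with 1 library left out, negative without sample 12. *Rpl37a* (0.24), *Rps15* (0.24) and *Rpl35* (0.24) were highest, and *Rps2* (-0.13), *Rpl3* (0.028) and *Rpl7l1* (0.042) lowest. Without sample 12, *Rpl37a* came to -0.13, *Rps15* to -0.0066, *Rpl3* to -0.25 and *Rpl7l1* to -0.087, and without sample 11 *Rps2* came to 0.056. Both comparisons share groups with those of UVB.

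Sums of cell type markers are given beside the members in nodes, and their part in the members' values was not tested. The 12 proliferation genes (all detected, *Top2a* most abundant) summed to 164, 159 and 108 CPM in WT nodes without UVB, 398, 311 and 227 after UVB, 155, 93.0 and 203 in *Ifnk* TG nodes without UVB and 314, 169 and 270.0 after UVB. The 12 T cell markers (all detected, *Cd4* most abundant) summed to 3753, 3824 and 3746 CPM in WT nodes without UVB, 2946, 3232 and 3277 after UVB, 3302, 3518 and 3422 in *Ifnk* TG nodes without UVB and 3151, 3499.9 and 3757 after UVB. The 12 stromal and vessel markers (all detected, *Pecam1* most abundant) summed to 416, 412 and 424 CPM in WT nodes without UVB, 299, 224 and 264 after UVB, 397, 534 and 384 in *Ifnk* TG nodes without UVB and 273, 295 and 353 after UVB. Of 10 erythroid markers, 9 were in the table (*Hbb-bs* most abundant), and these summed to 134, 122 and 266 CPM in WT nodes without UVB, 14.5, 10.9 and 39.5 after UVB, 304, 292 and 263 in *Ifnk* TG nodes without UVB and 26.2, 117 and 159.7 after UVB. The 8 fibroblast markers (all detected, *Col1a2* most abundant) summed to 72.5, 68.7 and 51.9 CPM in WT nodes without UVB, 41.6, 15.3 and 16.3 after UVB, 60.3, 121 and 62.8 in *Ifnk* TG nodes without UVB and 32.5, 21.2 and 60.4 after UVB. The nuclear-retained RNAs, 5 of 5 detected and led by *Malat1*, summed to 1391, 2284 and 1802 CPM in WT nodes without UVB, 2185, 1566 and 2480.2 after UVB, 1593, 4685 and 2076 in *Ifnk* TG nodes without UVB and 3619, 2473 and 1044 after UVB. Of these genes, edgeR passed after UVB in WT nodes 1 of 12 proliferation genes as higher, and as lower 3 of 12 T cell, 2 of 12 stromal, 4 of 6 tested erythroid and 1 of 8 fibroblast markers, with 0 of 4 tested nuclear-retained RNAs, beside 2.92% of all genes higher and 2.06% lower. In the same order of lists, the counts at an unadjusted p under 0.05 and by DESeq2 were 12 and 10, 8 and 6, 8 and 6, 6 and 6, 6 and 3, and 1 and 1, beside 26.3% and 2002 of 16173 genes. Leaving out any 1 library left at most 1 call in each list, where these fits passed between 0 (without sample 8) and 493 (without sample 7) of all genes. In *Ifnk* TG nodes edgeR passed 0 of each list, as of all genes, with 4 and 0, 1 and 0, 4 and 2, 4 and 0, 4 and 1, and 0 and 0 at an unadjusted p under 0.05 and by DESeq2, in that order of lists. Among all genes 9.32% were at an unadjusted p under 0.05 there, and the number called by DESeq2 is given with the members above. Sample 12, the library with the highest member levels among irradiated *Ifnk* TG nodes, had the lowest sum of nuclear-retained RNAs in the tissue. Sample 2 had the highest sum of its group. Mitochondrially encoded genes took 6.29% to 10.1% of counts in node libraries. Among other cell types, plasma cell markers (8 of 8) summed to between 171 and 271 CPM, macrophage and monocyte markers (12 of 12) to between 451 and 811, and neutrophil markers (11 of 11) to between 3.34 and 17.5. After UVB in WT nodes, edgeR passed as lower 2 of 10 naive T cell and 1 of 2 tested adipocyte markers, beside 2.06% of all genes. It passed 0 of 7 tested plasma cell, 0 of 12 macrophage and monocyte and 0 of 5 tested neutrophil markers, the last with a median of -1.40. In this order, 6, 1, 1, 1 and 1 were at an unadjusted p under 0.05, beside 26.3% of all genes.

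**Figure D3:**
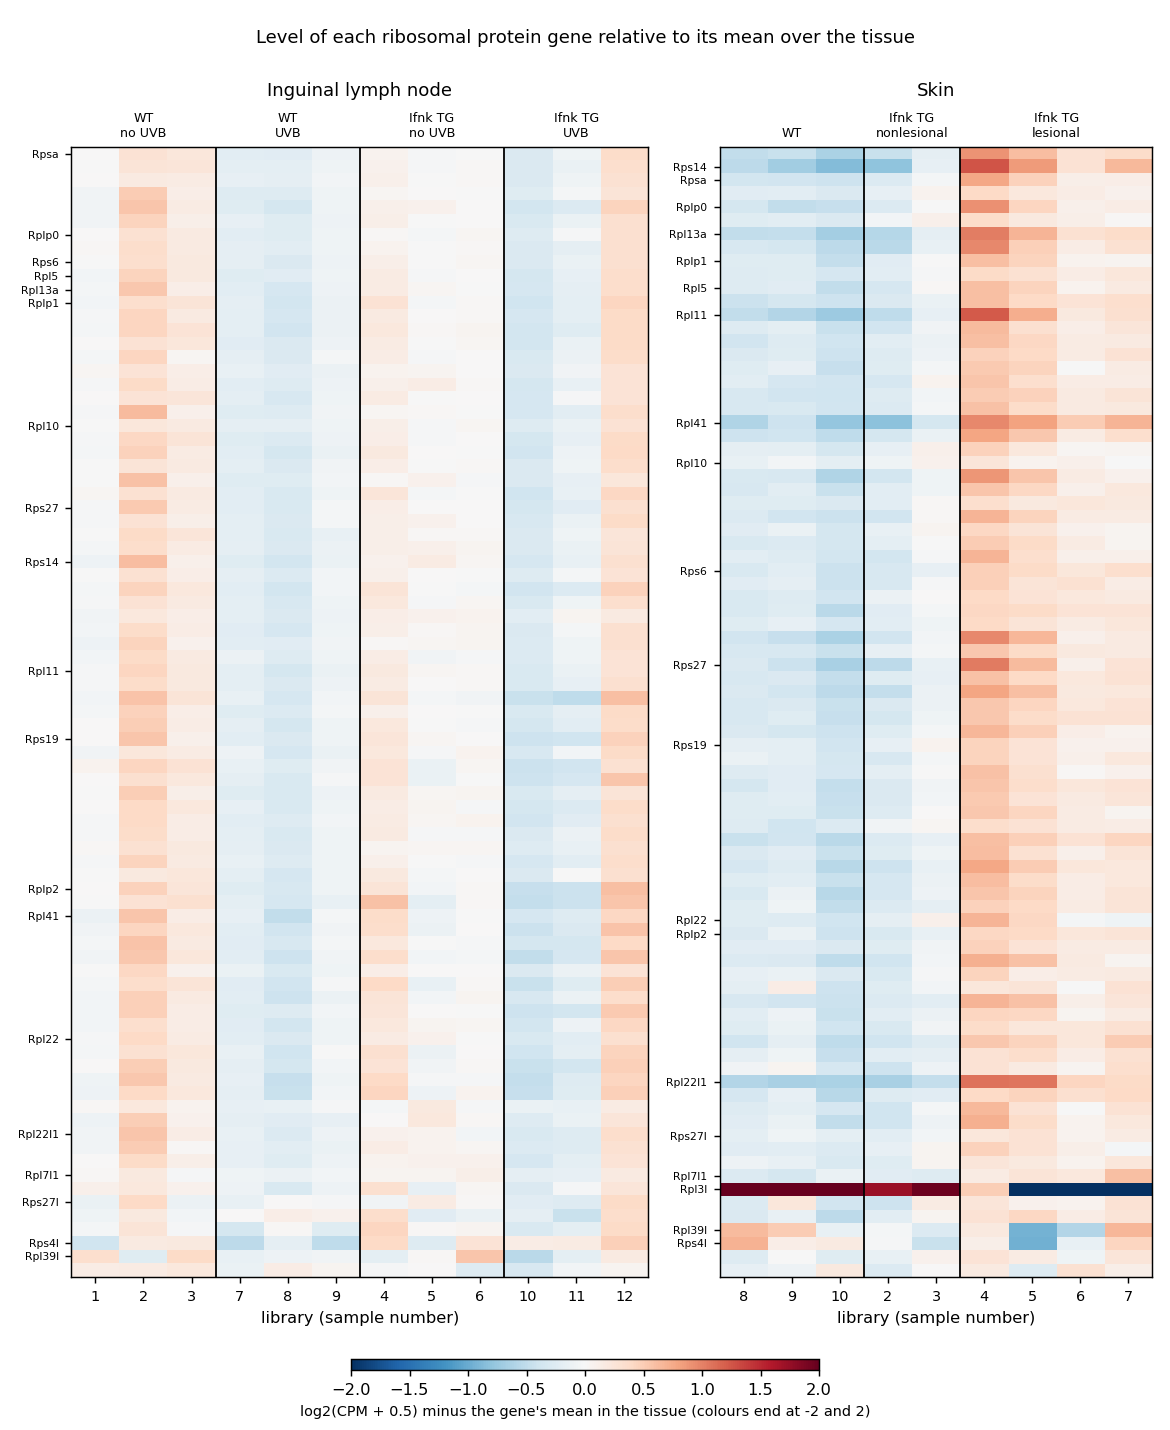
Log2(CPM + 0.5) of each tested ribosomal protein gene minus its mean over the tissue, for 12 lymph node libraries (left) and 9 skin libraries (right); colours end at -2 and 2. Columns are libraries with their sample numbers, and genes are ordered by their mean CPM in the tissue, with names for some of the members described in the text. Samples 2 and 12 in nodes and sample 4 in lesional skin are red over most members, and *Rpl3l* runs against the others in skin.

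In skin, lesional *Ifnk* TG skin was compared with WT skin to find what differs in the lesion. Of 84 tested members, 75 were higher in lesional skin (edgeR, adjusted p under 0.05), beside 23.0% of all 19101 genes. By edgeR 0 members were lower, beside 20.2% of all genes. At an unadjusted p under 0.05, 76 members were higher and 1, *Rpl3l*, was lower, beside 9870 of all 19101 genes in either direction. DESeq2 called 75 members and 4656 of all genes higher and 0 members lower, but its Cook's distance filter gave *Rpl3l* no p. Without that filter, a setting chosen after the data were seen, DESeq2 called *Rpl3l* lower (adjusted p = 0.0169), beside 23.3% of all genes. The median log2 fold change of the members was 0.62, a 1.54-fold difference, and that of all genes 0.061. The 4 lesional libraries lay above all 3 WT libraries for 76 of 84 members, against 26.0% of all genes. By part of the ribosome, 44 of 46 large-subunit and 28 of 30 small-subunit members were higher, and 3 of 8 tested paralogs (*Rpl7l1*, *Rpl22l1* and *Rps27l*).

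Of the stalk genes, *Rplp0* had 972, 876 and 899 CPM in WT skin, 1024 and 1233 CPM in nonlesional skin and 2330.2, 1665, 1329.7 and 1369.8 CPM in lesional skin. Every lesional library was above every other library, and sample 4 was the highest. *Rplp0* rose by 0.87 ± 0.21 (SE) on the log2 scale against WT skin (adjusted p = 0.0111), *Rplp1* by 0.63 and *Rplp2* by 0.60. *Rplp1* did not pass without WT sample 9, at 0.66 (adjusted p = 0.0549), or without WT sample 10, at 0.55 (adjusted p = 0.0781). In the large subunit, *Rpl22l1* had 81.0, 77.9 and 78.6 CPM in WT skin, 77.8 and 87.2 CPM in nonlesional skin and 261, 258, 164 and 159.7 CPM in lesional skin. Nonlesional values lay close to the WT values, while lesional samples 4 and 5 were above samples 6 and 7. The log2 fold change was 1.41 ± 0.20 (SE; adjusted p = 0.000879), whereas that of *Rpl22* was 0.58 ± 0.20 (SE; adjusted p = 0.0433). *Rpl41*, whose product is the shortest of the ribosomal proteins, had 435, 494 and 389 CPM in WT skin, 376 and 519 CPM in nonlesional skin and 1284, 1157, 944 and 1057 CPM in lesional skin. The lesional libraries were again apart from all others. *Rpl41* rose by 1.34 ± 0.17 (SE; adjusted p = 0.000587). *Rpl11* had 549, 515 and 469 CPM in WT skin, 543 and 685 CPM in nonlesional skin and 1799.9, 1282, 881 and 968 CPM in lesional skin. Sample 4 led, and nonlesional sample 3 was above the WT libraries. Its log2 fold change was 1.27 ± 0.25 (SE; adjusted p = 0.00428), and that of its partner *Rpl5* was 0.66 ± 0.17 (SE; adjusted p = 0.0146). Without WT sample 10, *Rpl5* was at 0.58 (adjusted p = 0.0632) and *Rpl22* at 0.53 (adjusted p = 0.13), and neither passed; *Rpl22* also lost its call without WT sample 8 or 9 or lesional sample 4 or 5, with RLE or upper-quartile scaling, and with only these groups in the fit (adjusted p = 0.0833). *Rpl13a* had 726, 735 and 638 CPM in WT skin, 682 and 901 CPM in nonlesional skin and 2076, 1624, 1256 and 1316 CPM in lesional skin, a rise of 1.16 ± 0.21 (SE; adjusted p = 0.00256). Among the members with a promoter window printed above, some with large differences had a long pyrimidine run at the RefSeq start (*Rpl13a*, *Rpl22l1*). Others had a short one there (*Rpl41*, *Rpl11*), but their GENCODE genes begin further upstream, so their run length is uncertain. *Rps14*, which had the largest difference, had no matched promoter, and a relation over all matched members was not tested.

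In the small subunit, *Rps14* had 1013, 896 and 802 CPM in WT skin, 838 and 1299 CPM in nonlesional skin and 3474, 2645, 1782 and 2297 CPM in lesional skin. All lesional values were above the rest, and nonlesional sample 3 lay above the WT values. It had the largest log2 fold change of any member, 1.50 ± 0.26 (SE; adjusted p = 0.00222). *Rps27* had 422, 385 and 330.0 CPM in WT skin, 359.9 and 468 CPM in nonlesional skin and 1064, 798, 553 and 624 CPM in lesional skin, with the same separation of the lesional libraries. The estimate for *Rps27* was 1.00 ± 0.24 (SE; adjusted p = 0.00933), and that of *Rps27l* was 0.35 ± 0.089 (SE; adjusted p = 0.0129). *Rps6* rose by 0.67 (adjusted p = 0.00273), *Rpsa* by 0.79 (adjusted p = 0.00963) and *Rps19* by 0.48 (adjusted p = 0.0198) on the log2 scale. *Rps19* did not pass without WT sample 9, at 0.50 (adjusted p = 0.057), or WT sample 10, at 0.42 (adjusted p = 0.0829). *Rps27l* did not pass without WT sample 8, at 0.33 (adjusted p = 0.0512), or WT sample 10, at 0.33 (adjusted p = 0.0517).

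Some paralogs did not share this difference. *Rpl3l*, which takes the place of *Rpl3* in ribosomes of striated muscle, had 117, 144 and 153 CPM in WT skin, 93.0 and 110.2 CPM in nonlesional skin and 39.3, 0.148, 2.00 and 6.36 CPM in lesional skin. Its lesional values were all below the rest, and sample 4 was far above samples 5, 6 and 7. The log2 fold change was -3.52 ± 1.26 (SE; adjusted p = 0.0536) and did not pass. A nonrobust fit of all 9 libraries called it lower (adjusted p = 0.0433), and so did the fits without sample 4, at -5.57 (adjusted p = 0.00333), and without sample 5, at -3.11 (adjusted p = 0.0375). *Rps4l* was at -0.43 ± 0.33 (SE; adjusted p = 0.321) and *Rpl39l* at -0.42 ± 0.39 (SE; adjusted p = 0.422), with overlapping groups. *Rpl7l1* rose by 0.57 ± 0.12 (SE; adjusted p = 0.00544), sample 7 being its highest library.

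**Figure D4:**
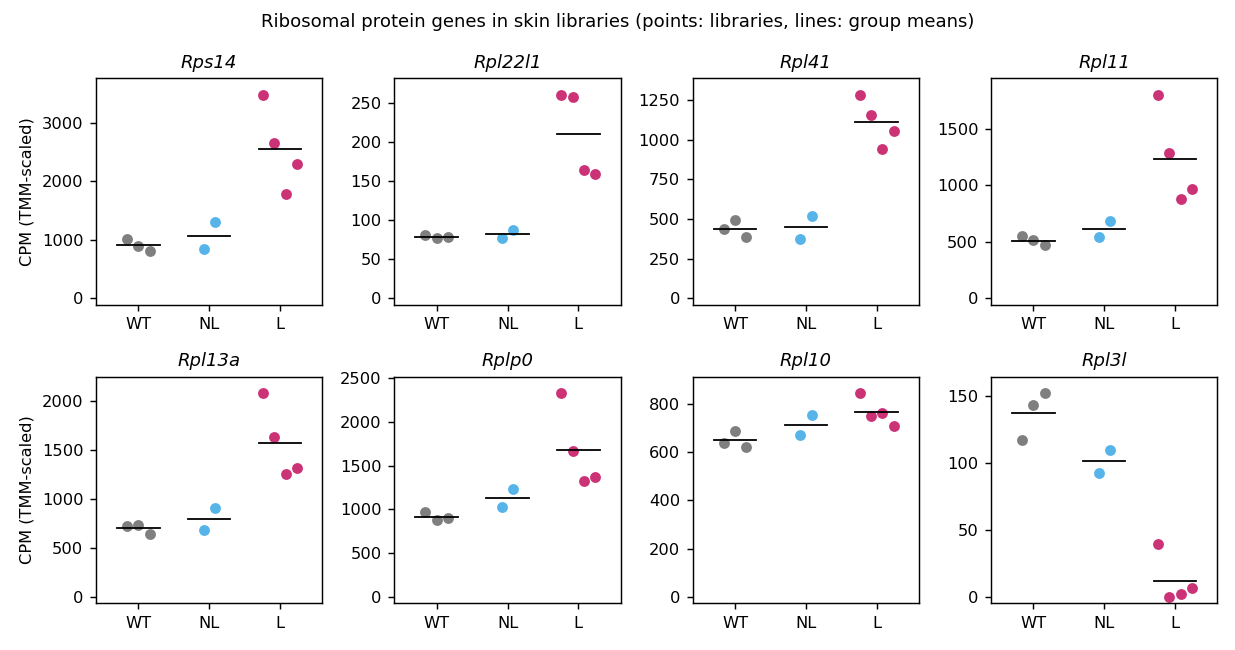
CPM after TMM scaling of 8 ribosomal protein genes in WT skin (n = 3), nonlesional *Ifnk* TG skin (NL, n = 2) and lesional *Ifnk* TG skin (L, n = 4). Points are libraries and lines are group means, and each panel has its own axis. Lesional values of *Rps14*, *Rpl22l1*, *Rpl41*, *Rpl11*, *Rpl13a* and *Rplp0* lie above all others, those of *Rpl10* come close to the nonlesional ones, and those of *Rpl3l* lie below all others.

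Sums of cell type markers in skin are given for the same groups, with the calls of edgeR in lesional against WT skin, and their part in the members' values was not tested. These calls stand beside 23.0% of all genes higher and 20.2% lower, or, with 1 library left out, 17.2% (without WT sample 9) to 23.1% (without lesional sample 7) higher and 15.5% (without WT sample 10) to 20.0% (without lesional sample 4) lower. The 10 skeletal muscle markers (all in the table, *Acta1* most abundant) summed to 34188, 41876 and 46881 CPM in WT skin, 31939.8 and 37341 in nonlesional skin and 9431, 29.4, 514 and 1872 in lesional skin; 3 of 10 were lower, 0 without WT sample 8 and 10 without lesional sample 4. Lesional samples 4 to 7 stood in the same order for these markers as for *Rpl3l*, with sample 4 highest and sample 5 lowest. Of 11 hair shaft markers 10 were in the table, led by *Krt33a*, and they summed to 2.51, 1.97 and 4.15 CPM in WT skin, 3.92 and 4.59 in nonlesional skin and 1893, 5993, 4851 and 6228 in lesional skin; all 10 were higher in lesional skin. The 12 proliferation genes (all detected, *Mki67* most abundant) summed to 42.1, 47.4 and 73.0 CPM in WT skin, 83.6 and 81.7 in nonlesional skin and 305, 290.4, 555 and 665 in lesional skin, and all 12 were higher. The 12 keratinocyte markers (*Krt10* most abundant) summed to 14048, 12535 and 11196 CPM in WT skin, 22818 and 20888 in nonlesional skin and 28187, 21736, 22962 and 10784 in lesional skin; 5 were higher (10 without lesional sample 7) and 1 lower (0 without WT sample 8). The 11 neutrophil markers (*S100a9*) summed to 15.4, 20.9 and 12.6 CPM in WT skin, 13.6 and 12.6 in nonlesional skin and 573, 145, 77.8 and 65.6 in lesional skin; 5 of 9 tested were higher (3 without WT sample 10). The 8 adipocyte markers (*Fabp4*) summed to 11633, 9574 and 8093 CPM in WT skin, 7775 and 6791 in nonlesional skin and 3929, 832, 4342 and 3901 in lesional skin; 4 were lower (2 without WT sample 8, 7 without lesional sample 5). The 8 fibroblast markers (*Col3a1*) summed to 4990.2, 6884 and 7907 CPM in WT skin, 5363 and 3253 in nonlesional skin and 4199, 4489, 3668 and 8331 in lesional skin; 2 were lower (1 without WT sample 9). The 12 T cell markers (all detected, *Cd3g* most abundant) summed to 51.9 ± 6.81 CPM in WT, 65.4 ± 9.35 in nonlesional and 91.6 ± 30.7 in lesional skin (mean ± SD), and 8 of 12 were higher in lesional than in WT skin. The sums ran from 47.7 to 117 CPM in lesional and from 44.5 to 58.0 CPM in WT libraries, so these groups overlapped. The 12 B cell markers (all detected, 10 tested) summed to 108, 112 and 73.6 CPM in WT skin, 214 and 128 in nonlesional skin and 36.5, 28.7, 58.1 and 56.6 in lesional skin, and the groups did not overlap. Most of this was *Ighm*, at 103, 106 and 66.2 CPM in WT, 209 and 124 in nonlesional and 29.9, 20.6, 51.1 and 51.1 in lesional skin; 2 of the 10 were higher and 2 lower in lesional than in WT skin, and 0 either way without WT sample 9. The 8 plasma cell markers (all detected) summed to 491, 456 and 454 CPM in WT skin, 629 and 659.6 in nonlesional skin and 816, 1223, 880.4 and 757 in lesional skin. Much of this was *Sdc1*, which keratinocytes also express, at 257, 233 and 212 CPM in WT, 387 and 394 in nonlesional and 533, 858, 524 and 522 in lesional skin, so the sum does not measure plasma cells; 3 of 8 were higher and 1, *Irf4*, lower at -1.16 ± 0.34 (SE; adjusted p = 0.0244) (0 lower without WT sample 9). The 12 macrophage and monocyte markers (all detected) summed to 959, 2505 and 1691 CPM in WT skin, 857 and 1219.8 in nonlesional skin and 1420.1, 678, 2041 and 967 in lesional skin; 1 was higher. The 5 nuclear-retained RNAs (all detected, *Malat1*) summed to 559.6, 314 and 304 CPM in WT skin, 872 and 302 in nonlesional skin and 989, 1601, 516 and 481 in lesional skin; 2 were higher (0 without WT sample 9). Against nonlesional skin edgeR passed 0 muscle, 0 adipocyte, 0 fibroblast and 0 nuclear-retained genes, with 6 and 1, 3 and 3, 0 and 0, and 1 and 1 at an unadjusted p under 0.05 and by DESeq2. Without lesional sample 4 all 10 muscle markers were lower and without lesional sample 5, 5 adipocyte markers were. With all libraries, 12 of 12 proliferation and 10 of 10 hair shaft genes were higher against nonlesional skin. So were 5 of 9 neutrophil, 3 of 12 keratinocyte, 2 of 12 T cell, 1 of 8 plasma cell and 1 of 12 macrophage and monocyte markers. Lower were 1 of 12 keratinocyte and 1 of 10 B cell markers. Among all genes 13.2% were higher and 11.8% lower there. Mitochondrially encoded genes took 10.2%, 8.65% and 9.56% of counts in WT skin, 6.50% and 8.34% in nonlesional skin and 8.68%, 8.02%, 4.60% and 5.05% in lesional skin. With muscle, hair shaft and mitochondrially encoded genes left out of the scaling, an alternative chosen after the data were seen, 74 of 84 members and 21.7% of all genes were higher against WT skin, with a member median of 0.59, and *Rpl22* lost its call (adjusted p = 0.0531). Against nonlesional skin 29 of 84 members and 12.4% of all genes were higher, with a median of 0.46, and *Rps27* (adjusted p = 0.0511) and *Rps27l* (adjusted p = 0.0687) lost theirs.

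Lesional skin was next compared with nonlesional skin of *Ifnk* TG mice, where both groups carry the transgene; the labels do not say whether they come from the same mice. The lesional libraries are shared with the comparison above. By edgeR, 37 of 84 members were higher, beside 13.2% of all genes, and 0 were lower, beside 11.8% of all genes. At an unadjusted p under 0.05, 66 members were higher and 1, *Rpl3l*, was lower, beside 7448 of all 19101 genes in either direction. DESeq2 called 59 members and 3343 of all genes higher and 0 members lower, with no p for *Rpl3l*, which did not pass without the Cook's distance filter either (adjusted p = 0.098). The median was 0.49 (all genes 0.034). With only 2 nonlesional libraries the count rested on each of them: 1 member passed without nonlesional sample 2, 2 without nonlesional sample 3 and 23 without lesional sample 5. In these fits 4.02%, 3.25% and 12.5% of all genes were higher, so fewer calls without a nonlesional library were found over all genes, while the median ran from 0.39 to 0.62 over all libraries left out. *Rpl22l1* had the highest log2 fold change, 1.35 ± 0.23 (SE; adjusted p = 0.00483), then *Rpl41*, 1.31 ± 0.20 (SE; adjusted p = 0.00333), and *Rps14*, 1.25 ± 0.30 (SE; adjusted p = 0.0172). *Rpl11* (1.01), *Rpl13a* (0.99), *Rps27* (0.88), *Rps6* (0.59), *Rpl7l1* (0.57), *Rplp2* (0.56) and *Rps27l* (0.32) also rose with all libraries in the fit. With only these groups in the fit 5 members passed, *Rpl22l1* and *Rpl41* among them, beside 9.67% of all genes higher, and the other members named as rising lost their calls. *Rps27l* also lost its call with RLE or upper-quartile scaling, without the low-count filter, in a nonrobust fit and without any 1 of the nonlesional samples or of lesional samples 4, 5 and 7 (adjusted p = 0.0544 without sample 7). Without lesional sample 5, *Rps27* (adjusted p = 0.0675) and *Rpl11* (adjusted p = 0.0527) lost theirs as well. Without nonlesional sample 3, *Rpl22l1* and *Rpl41* were the 2 that passed. Without nonlesional sample 2, *Rpl41* alone passed, while *Rpl22l1* was at 1.27 (adjusted p = 0.0557), *Rps14* at 0.97 (adjusted p = 0.149), *Rpl11* at 0.85 (adjusted p = 0.224), *Rpl13a* at 0.80 (adjusted p = 0.159) and *Rps27* at 0.70 (adjusted p = 0.269). The estimates of *Rplp0* (0.57), *Rplp1* (0.43), *Rpl5* (0.48), *Rpsa* (0.55), *Rpl22* (0.31) and *Rps19* (0.28) did not pass by edgeR; DESeq2 called *Rpsa* (adjusted p = 0.0341). *Rpl10*, which joins the large subunit last and lets it mature, had 640.2, 687 and 622 CPM in WT skin, 669 and 756 CPM in nonlesional skin and 845, 749, 761 and 708 CPM in lesional skin. Nonlesional sample 3 lay within the lesional range, and the log2 fold change was 0.10 ± 0.13 (SE; adjusted p = 0.605). *Rpl3l* was at -3.08 ± 1.32 (SE; adjusted p = 0.125), and without lesional sample 4 it passed as lower, at -5.13 (adjusted p = 0.00846).

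Nonlesional *Ifnk* TG skin was set against WT skin, where an effect of the transgene cannot be told apart from unlabelled sex, site or mouse. By edgeR 0 of 84 members passed, and 0.00% of all genes. At an unadjusted p under 0.05 there was 1 member, *Rpl21*, beside 7.67% of all genes, and DESeq2 called 0 members, with no p for *Rpl3l*, and 80 of all genes. With any 1 library left out, 0 members were at an unadjusted p under 0.05 and 0 passed by edgeR, while 3.46% (without nonlesional sample 3) to 8.43% (without WT sample 8) of all genes were at an unadjusted p under 0.05. A fit of only these groups had 4 members there, beside 17.5% of all genes, and passed 0. The median was 0.15 (all genes -0.0011), positive for 78 of 84 members, but 0.0064 without nonlesional sample 3. *Rpl21* had 364, 331 and 357 CPM in WT skin and 415 and 445 CPM in nonlesional skin, and both nonlesional values were the higher ones. This gave a log2 fold change of 0.30 ± 0.13 (SE; adjusted p = 0.65). *Rplp0* (0.30) and *Rps7* (0.28) were the other members at the upper end, and *Rps4l* (-0.61), *Rpl39l* (-0.54) and *Rpl3l* (-0.44) at the lower end. The plot of all 8 comparisons places the members beside all tested genes.

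**Figure D5:**
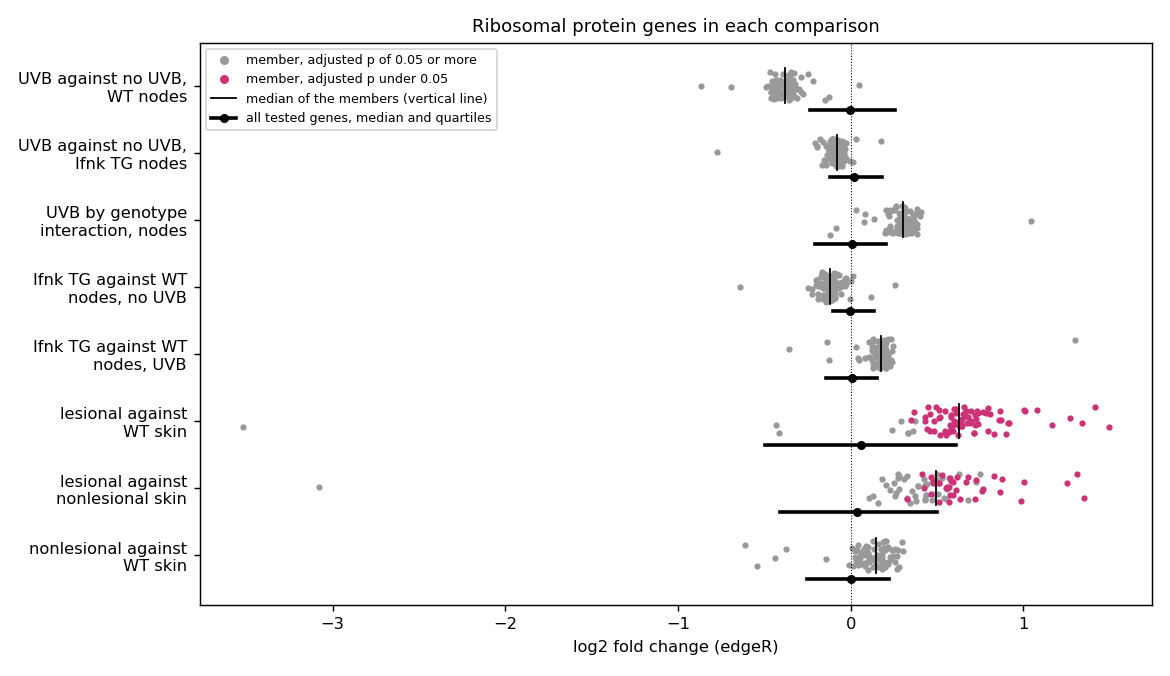
Log2 fold change (edgeR) of each tested ribosomal protein gene in 8 comparisons, 5 in lymph nodes and 3 in skin. Points are members, coloured where the adjusted p was under 0.05, the vertical line is the members' median, and the bar under each set gives the median and quartiles of all tested genes. In this fit members passed as higher in the lesional comparisons, 75 of 84 against WT (23.0% of all genes) and 37 of 84 against nonlesional skin (13.2%), and in no other comparison shown. *Rpl3l* is the point at the far left of both lesional comparisons.

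Other genes of translation were read from lists for the same comparisons, and their counts stand beside 23.0% of all genes higher and 20.2% lower in lesional against WT skin. With 1 library left out, these shares were 18.6% and 15.7% without WT sample 8, 17.2% and 15.8% without WT sample 9, 17.4% and 15.5% without WT sample 10, and 23.1% and 19.4% without lesional sample 7. In lesional against WT skin, ribosomal proteins outside the pattern included *Rack1* and *Rpl36al*, both higher. *Rack1*, a scaffold on the small subunit, was at 0.99 ± 0.21 (SE; adjusted p = 0.00612), and *Rpl36al* at 0.78 ± 0.14 (SE; adjusted p = 0.00251). Of 20 genes listed as carrying a TOP element, 12 were higher, with a median of 0.49. That list holds translation genes such as *Eef1a1* and some genes with other roles, such as *Vim*. *Npm1*, a nucleolar chaperone, was at 0.83 ± 0.11 (SE; adjusted p = 0.000718), and *Pabpc1*, the poly(A)-binding protein, at 0.83 ± 0.11 (SE; adjusted p = 0.000783). Of 8 host genes of small nucleolar RNAs, 3 were higher (1 without WT sample 9), led by *Snhg1* at 1.03 ± 0.18 (SE; adjusted p = 0.00208). Of 40 ribosome biogenesis genes, 18 were higher (11 without WT sample 8), with a median of 0.41. *Nhp2* and *Nop58*, core proteins of the small nucleolar particles, were at 1.31 ± 0.11 (SE; adjusted p = 0.000104) and 0.98 ± 0.20 (SE; adjusted p = 0.00462). Of 29 initiation factor genes, 17 were higher and 1 lower (2 without lesional sample 7). *Eif6*, which keeps the subunits apart, was at 1.12 ± 0.15 (SE; adjusted p = 0.000802), and *Eif4a2*, an RNA helicase, was the lower one, at -1.12 ± 0.14 (SE; adjusted p = 0.000499). Of 12 genes for rRNA transcription, 4 were higher, led by *Taf1d* at 1.41 ± 0.19 (SE; adjusted p = 0.000721). Of 12 regulators of ribosomal protein synthesis, 11 were in the table, and 3 were higher and 2 lower. Their median was 0.061, the same as that of all genes (0.061). The transcription factor gene *Mycn* was at 4.43 ± 0.60 (SE; adjusted p = 0.000818), and *Eif4ebp1*, an mTOR-controlled repressor of translation, at -0.84 ± 0.14 (SE; adjusted p = 0.00199). Of 20 cytosolic tRNA synthetase genes 8 were higher, led by *Rars* at 1.24 ± 0.15 (SE; adjusted p = 0.000492). The 84 mitochondrial ribosomal protein genes, pseudogene names included, were split in direction: of 80 tested, 11 were higher (7 without WT sample 9) and 13 lower (7 without WT sample 10), with a median of 0.030. *Mrpl20* was at 0.70 ± 0.11 (SE; adjusted p = 0.00122) and *Mrps6* at -1.65 ± 0.31 (SE; adjusted p = 0.00361).

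In WT nodes after UVB, the median of the 20 TOP genes was -0.26, with every estimate negative. The median in *Ifnk* TG nodes was -0.023. Host genes of small nucleolar RNAs had medians of 0.77 in WT and 0.35 in *Ifnk* TG nodes, in the other direction from the ribosomal protein genes. Their summed level, led by *Gas5*, was 89.9, 137 and 82.8 CPM in WT nodes without UVB, 174, 154 and 163 after UVB, 111, 106 and 92.7 in *Ifnk* TG nodes without UVB and 187, 134 and 76.6 after UVB. Initiation factors (-0.11) and ribosome biogenesis genes (-0.054) had medians nearer 0 in WT nodes. By edgeR, 0 of 20 TOP genes passed (9 at an unadjusted p under 0.05, 4 by DESeq2), 0 of 8 small nucleolar RNA host genes (3 and 3), 0 of 29 initiation factors (4 and 3) and 0 of 10 regulators (0 and 0). Among all genes the shares were 2.92% higher and 2.06% lower, 26.3% at an unadjusted p under 0.05 and 2002 of 16173 by DESeq2. The initiation factors and the regulators were thus below the unadjusted share of all genes, as were the ribosome biogenesis genes (10 of 40) and the tRNA synthetases (5 of 20). Among the other lists, 1 of 40 ribosome biogenesis genes passed (10 at an unadjusted p under 0.05, 4 by DESeq2). This was *Ltv1*, an assembly factor of the small subunit, lower at -0.36 ± 0.086 (SE, adjusted p = 0.0379). Of 12 genes for rRNA transcription 2 passed (6 at an unadjusted p under 0.05, 2 by DESeq2). *Taf1c* was higher at 0.48 ± 0.078 (SE, adjusted p = 0.0166) and *Taf1b* lower at -0.38 ± 0.10 (SE, adjusted p = 0.0494). Of 20 tRNA synthetase genes 2 passed (5 at an unadjusted p under 0.05, 2 by DESeq2). *Lars* and *Sars* were lower, at -0.40 ± 0.086 (SE, adjusted p = 0.0304) and -0.38 ± 0.087 (SE, adjusted p = 0.0343). Of 80 mitochondrial ribosomal protein genes 4 were lower (0 without sample 2, where 0.566% of all genes were lower), while DESeq2 called 19 and 26 were at an unadjusted p under 0.05. The lower genes included *Mrpl54* at -0.67 ± 0.18 (SE; adjusted p = 0.0473), and the median was -0.17. The call of each gene named here was lost in 3 or more of the 6 fits that left out 1 library: without sample 2, *Ltv1* came to -0.28, and without sample 8, *Lars* came to -0.32, *Taf1c* to 0.43 and *Mrpl54* to -0.51.

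Against nonlesional skin the lists had positive medians too, 0.32 for the TOP genes, 0.42 for ribosome biogenesis, 0.40 for initiation factors and 0.12 for mitochondrial ribosomal proteins, where the median of all genes was 0.034. In the same order, edgeR called 7 of 20, 9 of 40, 13 of 29 and 10 of 80 higher, beside 13.2% of all genes. *Eif4a2* (-1.07), *Mrpl42* (-0.63), *Taf1c* (-0.49) and *Eif4ebp2* (-0.58) were lower, beside 11.8% of all genes. *Taf1c* lost its call without lesional sample 4, 5 or 6. Without nonlesional sample 3, *Mrpl42* was at -0.61 and *Eif4ebp2* at -0.45. *Nhp2* was at 0.95 ± 0.12 (SE; adjusted p = 0.00171).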

How the data were processed

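Poly(A) RNA from 21 libraries, 12 of strained inguinal lymph node and 9 of skin, was sequenced. Per the labels, the authors trimmed reads with cutadapt 4.8, checked them with FastQC 0.11.8 and MultiQC 1.20, aligned them to GRCm38 with STAR 2.7.8a and estimated gene levels with RSEM 1.3.3. The deposited values are the RSEM expected count of each gene, in a table for each tissue; the annotation release is not given in the sources used here. All columns were matched to samples, and counts were rounded to whole numbers.

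Each tissue was fitted on its own with edgeR 4.0.16 (R 4.3.3, limma 3.58.1): filterByExpr with the groups, at least 10 counts and 15 in total, TMM scaling, a robust quasi-likelihood F-test and Benjamini-Hochberg adjustment over all tested genes, with a threshold of 0.05 for the adjusted p. The standard error is the log2 fold change over the square root of F. The pipeline was tested on simulated data. DESeq2 1.42.0, other scalings, no filter, a nonrobust fit, an adjusted p of 0.01, added pseudogene counts, only the groups compared and each library left out were the alternatives; leaving out samples 2 and 12 together, and scaling skin without muscle, hair shaft and mitochondrially encoded genes, and DESeq2 without its Cook's distance filter, were added later. Lengths and biotypes came from GENCODE M21, and pseudogenes were found by name among the gene symbols deposited with the counts. Named members were the 3 with the largest and the 3 with the smallest estimate among those of at least 1 CPM in each comparison, together with a fixed list of members with known roles; *Rps4l* in irradiated nodes and *Rpl21* in nonlesional skin were named as the only member at an unadjusted p under 0.05, chosen after their values were seen. From each gene list, at most the 2 with the largest difference in each direction were named. The members and lists were chosen with earlier results of these data known. Figures were drawn with Python 3.11.15 and matplotlib 3.10.9.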

Additional observations from a re-analysis of the deposited data

Results flagged for a closer look

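A test for outlying samples, possible in the 4 lesional skin libraries, was run on 49 groups of values and picked out 4, where about 1 in 20 would be picked by chance. Sample 4 stood above the other lesional libraries for *Rpl3l* (39.3 CPM), for the share of counts in pseudogenes of the members (0.599%) and for the summed neutrophil markers (573 CPM). Sample 5 stood below the others for the summed adipocyte markers (832 CPM). Sample 4 also had the most muscle marker RNA of the lesional libraries, which could be muscle in the piece of skin taken or a difference between the mice, and these cannot be told apart. Whether the higher pseudogene share of sample 4 comes from reads of its more abundant members or from the copies themselves was not tested.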

How the results depend on the processing

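In UVB-treated WT nodes, edgeR with all libraries called 0 members, with 55 (of all genes 26.3%) at an unadjusted p under 0.05, while DESeq2 called 9 (5.47% of all genes lower), a fit of the WT groups alone 35 (5.64%) and the fit without samples 2 and 12 called 8 (4.60%). That last fit was added after the data were seen and drops libraries for their high member levels, which by construction lowers the change with UVB in *Ifnk* TG nodes and moves that in WT nodes toward 0, so its calls in *Ifnk* TG nodes are no evidence of a change. It called 10 members (0.689% of all genes lower) in *Ifnk* TG nodes where the fit of all libraries and DESeq2 called 0, and moved the median interaction to -0.052. The median interaction ran from 0.078 to 0.47 and the median of nonlesional against WT skin from 0.0064 to 0.26 with 1 library left out. With the share of all genes higher in brackets, lesional against nonlesional skin gave 37 members (13.2%), but 59 (17.5%) by DESeq2, 5 (9.67%) with only these groups in the fit, 5 (5.60%) at an adjusted p under 0.01 and 1 (4.02%) to 42 (13.4%) with 1 library left out. Against WT skin, 49 (13.8%) of 75 (23.0%) were left at an adjusted p under 0.01, and 52 (17.4%) to 75 (23.1%) with 1 library left out. RLE or upper-quartile scaling, scaling without the members, no low-count filter and a nonrobust fit kept the sign of every median. The cause of these differences was not tested.

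Some estimates changed sign. *Rpsa* in *Ifnk* TG nodes after UVB was -0.016 with upper-quartile scaling and -0.0013 with only the groups compared. With pseudogene counts added, *Rps2* was -0.35 for UVB in WT nodes, 0.29 for the interaction and 0.20 for *Ifnk* TG against WT nodes after UVB. Without samples 2 and 12, signs changed for *Rps27l* (0.072) in WT nodes, *Rpsa* (-0.18), *Rps4l* (-0.0075) and *Rplp0* (-0.14) in *Ifnk* TG nodes, *Rpl6l* (-0.29), *Rpl7l1* (-0.16) and *Rpl9* (-0.058) in the interaction and *Rpl3* (-0.24), *Rpl7l1* (-0.077) and *Rpl37a* (-0.13) between irradiated genotypes. With 1 library left out, they changed for *Rps2* (-0.030 to 0.15) and *Rps27l* (-0.24 to 0.073) for UVB in WT nodes, and for *Rpsa* (-0.21 to 0.15), *Rps24* (-0.17 to 0.11), *Rps29* (-0.65 to 0.052), *Rps4l* (-0.10 to 0.40) and *Rplp0* (-0.16 to 0.16) for UVB in *Ifnk* TG nodes. They also changed for *Rps2* (-0.38 to 0.11), *Rpl6l* (-0.18 to 0.25) and *Rpl7l1* (-0.093 to 0.12) in the interaction, for *Rpl7l1* (-0.036 to 0.078), *Rpl21* (-0.080 to 0.064), *Rps4l* (-0.052 to 0.52) and *Rpl6l* (-0.040 to 0.23) between genotypes without UVB, for *Rps2* (-0.39 to 0.056), *Rpl3* (-0.25 to 0.18), *Rpl7l1* (-0.087 to 0.13), *Rpl37a* (-0.13 to 0.45) and *Rps15* (-0.0066 to 0.43) between genotypes after UVB, and for *Rps4l* (-0.040 to 0.43) and *Rpl39l* (-0.22 to 0.35) in lesional against nonlesional skin. The cause was not tested.

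No paired analysis was possible because sample numbers run singly through each tissue and pair no libraries across groups. With 1 nonlesional sample left out, the remaining sample was assumed to vary like the other groups. The interaction uses all 4 groups, so a fit of only the groups compared gives no value for it. Library depth left a count of 0 open to at most 0.109 CPM in nodes and 0.0741 CPM in skin. Groups of 2 to 4 samples, unknown mouse identity, RNA pooled over cell types, the straining of nodes and reads shared with pseudogenes limit these results, and protein was not measured.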
